A study of Mus musculus with 6 samples.

Results

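The 10 genes described here encode ETS transcription factors: Ets1, Ets2, Elk1, Elk3, Elk4, Etv4, Etv5, Etv6, Gabpa and Erf. They were chosen by symbol from the family, in part because ETS2 is a known substrate of the kinase CDK10, and each matched 1 of the 57010 identifiers in the deposited table of counts. All 10 passed the filter on low counts, which left 13442 genes. The libraries came from CT26, a mouse colon carcinoma cell line, carrying guide RNA against Cdk10 (sgCdk10, 3 libraries) or control guide RNA (sgControl, 3 libraries). The titles do not say how many guides each group had. The labels give no further treatment and do not say whether the cells were a pool or 1 clone. Nor do they say if replicates were grown separately, so the spread behind each p-value may be purely technical.

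ETS factors share a DNA-binding domain that recognises a GGAA core. Many are end points of RAS and ERK signalling: ERK phosphorylates ETS1, ETS2, the ternary complex factors ELK1, ELK3 and ELK4, and the PEA3 group with ETV4 and ETV5. ERF and ETV6 act mainly as repressors, and ERK moves ERF out of the nucleus. GABPA differs from the rest in that it works as a complex with a beta subunit, GABPB1 or GABPB2, and is known for activating genes of mitochondrial function. In human cells CDK10 with cyclin M phosphorylates the ETS2 protein and promotes its degradation, a step that a count of mRNA does not measure.

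Total counts ran from 17532202 to 19258309 per library, and 3 counts corresponded to 0.156 to 0.171 CPM, the count scaled by the library's effective size. Cdk10 itself had 204, 227 and 202 counts in the sgCdk10 libraries, against 381, 344 and 365 in the sgControl libraries, so the targeted gene was lower in every library labelled for it. Its exons overlap those of Spata2l on the opposite strand over 417 bases. The library sgControl replicate 3 stood apart from sgControl replicates 1 and 2, its counts giving chi-square values of 3.97 and 4.02 per degree of freedom against them, where the other pairs of replicates gave 1.49 to 1.56, and calls of the members that change without it are given both ways. Of the 10 epithelial and colon markers 3 passed the filter, and Muc2 went the other way from Krt18 and Krt20. Mean levels were 37.5 CPM in sgCdk10 and 24.0 CPM in sgControl for Krt18, and 19.5 and 13.7 CPM for Krt20. For Muc2 they were 0.437 CPM in sgCdk10 and 0.841 CPM in sgControl. Epcam was at 0 in all 6 libraries and Cdh1 had at most 1 count. The summed level of the 10 markers was 58.1 to 59.4 CPM in sgCdk10 and 37.0 to 40.8 CPM in sgControl. The summed level of 12 leukocyte markers was 13.8 to 14.9 CPM in sgCdk10 and 9.54 to 10 CPM in sgControl, most of it Cd68, while Cd3e, Adgre1 and Ncr1 were at 0 in every library and Ptprc had at most 2 counts. The summed level of 6 endothelial markers was 0.773 to 0.935 CPM in sgCdk10 and 0.828 to 1.13 CPM in sgControl, with Erg at 0. The summed level of 8 fibroblast and smooth muscle markers was 146 to 152 CPM in sgCdk10 and 117 to 135 CPM in sgControl. Most of it was Col1a1 (mean 79.1 CPM in sgCdk10 and 65.4 CPM in sgControl), Pdgfrb (55.0 and 51.2) and Pdgfra (13.9 and 9.03). Des (0.849 and 1.04) and Myh11 (0.112 and 0.168) had lower means in sgCdk10. Acta2 and Lum were at 0 in every library. The part of these differences in the results below was not tested.

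Ets2 was the member that changed most. Its mRNA was 39.0% lower in the sgCdk10 libraries, while the 7 other members called by the test moved by 6.6% to 16% in one direction or the other. Of the 10 members 5 rose (Erf, Etv4, Elk4, Elk3 and Gabpa), 3 fell (Ets2, Etv5 and Ets1) and 2 were not called (Elk1 and Etv6), by edgeR's quasi-likelihood test at an adjusted p below 0.05. Over all 13442 genes tested the same rule called 42.5%, 22.1% higher and 20.4% lower in sgCdk10. Mean levels of the members ran from 26.9 to 159 CPM, and among the 5416 tested genes within that range 55.1% were called, 28.8% higher and 26.3% lower. The count of 8 of 10 is read against that background. The median log2 fold change of the members was 0.00 and the median of its absolute value 0.13, against -0.003 and 0.16 over all genes tested. A change of at least 1.5-fold was reached by 1 member, Ets2, and by 5.8% of all tested genes.

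The promoter windows show the recognition core that the family shares, and 3 stretches are given for the member that fell most, the member that rose most and the member whose window held a full consensus site. Capitals mark each GGAA core, on either strand.
Ets2: tcccctcccccggTTCCctccggccctccc
Erf: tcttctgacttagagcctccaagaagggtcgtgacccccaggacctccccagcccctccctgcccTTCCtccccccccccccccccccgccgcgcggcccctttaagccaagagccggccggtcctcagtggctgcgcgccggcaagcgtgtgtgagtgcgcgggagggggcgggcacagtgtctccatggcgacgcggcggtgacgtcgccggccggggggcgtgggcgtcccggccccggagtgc
Elk4: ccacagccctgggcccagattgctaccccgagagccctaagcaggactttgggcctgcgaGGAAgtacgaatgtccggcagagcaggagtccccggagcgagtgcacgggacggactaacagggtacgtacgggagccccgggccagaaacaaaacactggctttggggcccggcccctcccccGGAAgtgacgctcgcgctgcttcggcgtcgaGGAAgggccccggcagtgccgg
These are RefSeq sequences on GRCm38.p6: chr16:95702389-95702418 on the plus strand for Ets2, chr7:25250762-25251008 on the minus strand for Erf and chr1:132007370-132007606 on the plus strand for Elk4. The Ets2 stretch lies in the first annotated exon, and the other two end at the base before the first exon. RefSeq windows were found for 8 of the 10 members, 11 windows in all. Searched on both strands, GGAA stood in 10 of the 11 windows, and in 96.0% of the 32851 promoter windows of the same length. The longer consensus CCGGAAGT, which contains GGAA, stood in 1 of the 11, the Elk4 window printed here, and in 3.89% of all windows. The CArG box, the site of SRF, stood in 0 of the 11 and in 1.63% of all windows. These counts describe letters in the windows and say nothing of whether a factor binds there.

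**Figure D1:**
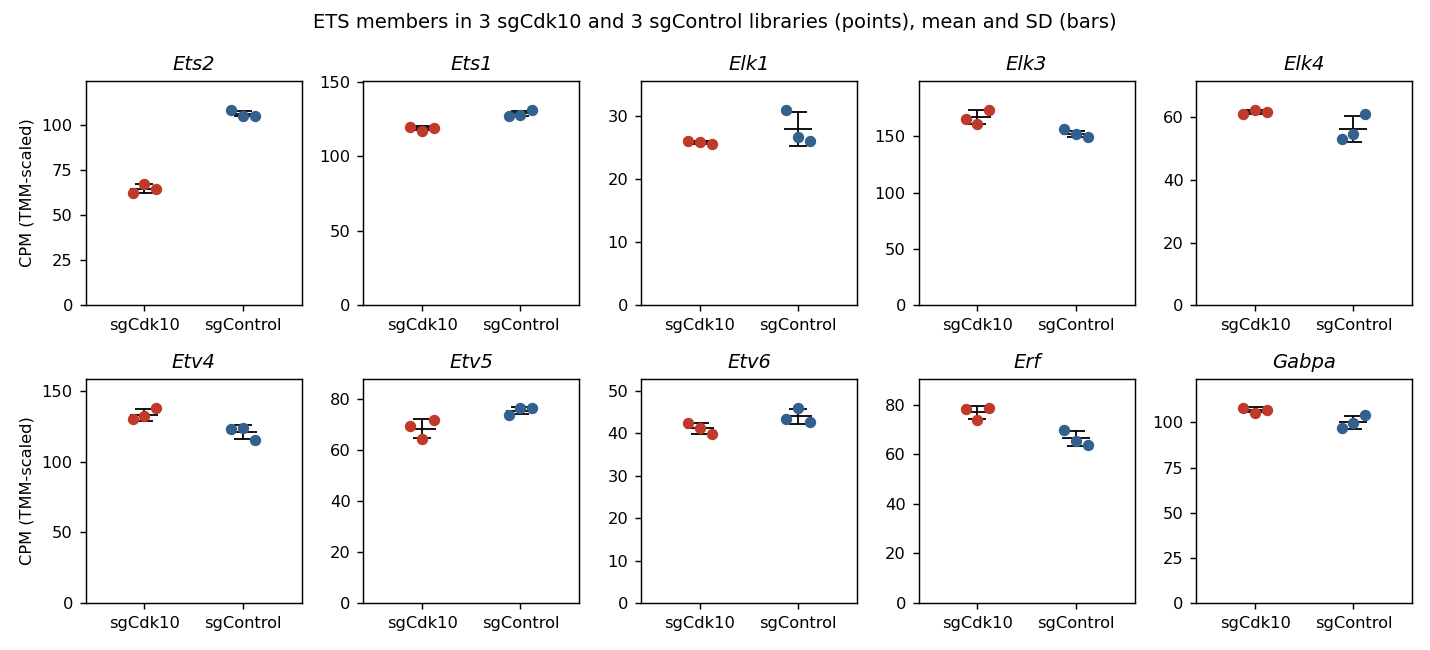
Level of each ETS member in TMM-scaled CPM, with 1 panel per gene, 3 sgCdk10 libraries on the left and 3 sgControl libraries on the right; points are libraries, and bars are the mean and SD. Ets2 had 62.4 to 67.0 CPM in sgCdk10 and 105 to 108 CPM in sgControl, while the other members differed by at most 16%.

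Ets2 and Ets1 are close paralogs that ERK activates through the same kind of phosphorylation. Ets2 (ENSMUSG00000022895) lies on chromosome 16 from 95702075 to 95721051, plus strand (GRCm38), and none of its 9 merged exons overlaps an annotated exon of another gene. It had 62.4, 67.0 and 64.4 CPM in sgCdk10 replicates 1 to 3, against 108, 105 and 105 CPM in sgControl replicates 1 to 3. The groups lay far apart, with every sgCdk10 library below every sgControl library. In bulk RNA, fewer cells with Ets2 mRNA and less of it per cell cannot be told apart. The log2 fold change was -0.71 (SE 0.04, 95% interval -0.79 to -0.64; edgeR adjusted p = 1.3e-13), which placed Ets2 at position 309 of the 13442 genes ordered from the largest fall and at position 62 by p-value. A fall of at least 1.5-fold that passed the test was seen in 2.27% of all tested genes.

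Ets1 (ENSMUSG00000032035; chromosome 9, 32636221 to 32757820, plus strand) fell far less. Its level was 120, 117 and 119 CPM in the sgCdk10 libraries and 127, 128 and 131 CPM in the sgControl libraries. The groups did not overlap, and the log2 fold change was -0.12 (SE 0.03; edgeR adjusted p = 0.00479). The 95% intervals of both paralogs did not meet: -0.79 to -0.64 for Ets2 and -0.18 to -0.05 for Ets1. The ratio between them within a library does not depend on how libraries are scaled. On the TPM scale, where each count is divided by gene length before libraries are scaled to 1 total, Ets2 stood to Ets1 at 0.765, 0.838 and 0.792 in the sgCdk10 libraries and at 1.24, 1.21 and 1.18 in the sgControl libraries. Ets2 was thus the less abundant of the pair in every sgCdk10 library and the more abundant in every sgControl library. With the longest transcript as the length the ratio was 0.681, 0.746 and 0.706 in the sgCdk10 libraries and 1.1, 1.08 and 1.05 in the sgControl libraries. Its log2 difference by merged exon length was -0.60, with an exact two-sided permutation p = 0.1, the smallest that 3 against 3 libraries allow.

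In CPM the groups did not overlap for 9 of the 10 members, 5 higher and 4 lower in sgCdk10, with Elk1 the exception. Over all tested genes that share was 51.3%, with 26.6% higher and 24.8% lower. For Etv6 the groups did not overlap in CPM, but the test did not call it. In TPM its groups did overlap, at 23.2, 22.6 and 21.7 in sgCdk10 and 23.1, 24.4 and 22.6 in sgControl.

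The ternary complex factors bind next to SRF at serum response elements. Elk3, known as a repressor that ERK turns into an activator, had 165, 161 and 173 CPM in sgCdk10 and 156, 152 and 149 CPM in sgControl. Every sgCdk10 library was above every sgControl library, and the log2 fold change was 0.13 (SE 0.03; edgeR adjusted p = 0.0024). Exons of Elk3 (ENSMUSG00000008398; chromosome 10, 93247414 to 93311135, minus strand) share 316 bases with Cdk17 on the opposite strand, which rose by 0.16 (edgeR adjusted p = 0.015). Elk4, also called SAP-1, had 61.0, 62.2 and 61.6 CPM in sgCdk10 and 53.1, 54.5 and 60.9 CPM in sgControl. The highest sgControl library, replicate 3, lay just below the lowest sgCdk10 library. Its log2 fold change was 0.13 (SE 0.05; edgeR adjusted p = 0.0276), a call that DESeq2 did not make (adjusted p = 0.105). Without sgControl replicate 3 the change of Elk4 was 0.19 (edgeR adjusted p = 0.000231), and without any 1 of the other 5 libraries it was 0.09 to 0.14 and not called (edgeR adjusted p from 0.0606 to 0.156). Elk4 (ENSMUSG00000026436) spans 132007607 to 132032612 of chromosome 1, plus strand, and shares 84 exon bases with Mfsd4a on the opposite strand, which was not called (edgeR adjusted p = 0.755).

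Elk1, the best studied of the ternary complex factors, was not called. It had 26.1, 25.8 and 25.6 CPM in sgCdk10 and 30.9, 26.6 and 26.0 CPM in sgControl, so the groups overlapped and sgControl replicate 1 was the high one. The log2 fold change was -0.11 with a 95% interval of -0.24 to 0.02 (edgeR adjusted p = 0.181). Without sgControl replicate 3 it was -0.16 (edgeR adjusted p = 0.0313), and without sgControl replicate 1 it was -0.03 (edgeR adjusted p = 0.783). Elk1 (ENSMUSG00000009406; chromosome X, 20933395 to 20950608, minus strand) was the lowest of the 10 members and shares 76 exon bases with Uxt. Set against Elk3 within each library, Elk1 had a TPM ratio of 0.134, 0.135 and 0.125 in sgCdk10 and of 0.168, 0.148 and 0.147 in sgControl (exact permutation p = 0.1).

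The PEA3 group split. Etv4, a member induced by ERK and FGF signalling, had 130, 132 and 138 CPM in sgCdk10 and 123, 124 and 115 CPM in sgControl. The groups did not overlap, and the log2 fold change was 0.14 (SE 0.04; edgeR adjusted p = 0.00195). Etv5, its close paralog and likewise an ERK-induced gene, had 69.3, 64.2 and 71.5 CPM in sgCdk10 and 73.7, 76.2 and 76.4 CPM in sgControl. Here every sgCdk10 library was below every sgControl library, and the log2 fold change was -0.14 (SE 0.04; edgeR adjusted p = 0.00893). Leaving out sgCdk10 replicate 2, the lowest library, gave -0.10 and ended the call (edgeR adjusted p = 0.0962). The third gene of the group, Etv1, is outside the 10 and rose by 0.37 (SE 0.06; edgeR adjusted p = 3e-05), at 35.4 ± 0.903 CPM in sgCdk10 and 27.3 ± 2.83 CPM in sgControl (SD, n = 3 each). Within a library the TPM ratio of Etv5 to Etv4 was 0.388 ± 0.0187 in sgCdk10 and 0.474 ± 0.025 in sgControl, and that of Etv1 to Etv5 was 0.160 ± 0.00826 in sgCdk10 and 0.112 ± 0.0139 in sgControl (SD, n = 3 each; exact permutation p = 0.1 for both). Neither ratio overlapped between the groups. Etv4 (ENSMUSG00000017724) lies on chromosome 11 from 101769742 to 101785371 and Etv5 (ENSMUSG00000013089) on chromosome 16 from 22381309 to 22439719, both on the minus strand.

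Erf showed the largest rise among the members. This repressor had 78.3, 74.1 and 78.8 CPM in sgCdk10, against 70.0, 65.6 and 64.0 CPM in sgControl. The groups did not overlap, and the level was 16% higher in sgCdk10, 0.21 ± 0.04 as a log2 fold change with its SE (edgeR adjusted p = 0.00021). With a correction for GC content and length the change was 0.14 and still called (edgeR adjusted p = 0.00228). Elk3 was also at 0.14 with that correction, so Erf no longer stood alone as the largest rise. Without sgControl replicate 3 Erf was at 0.18 and Elk4 at 0.19. Erf (ENSMUSG00000040857; chromosome 7, 25242561 to 25250761, minus strand) has 3 merged exons, the fewest of the 10 members. Etv6, the other repressor and known as TEL in human leukaemia fusions, had 42.4, 41.3 and 39.8 CPM in sgCdk10 and 43.3, 46.0 and 42.7 CPM in sgControl. Its highest sgCdk10 library was just below its lowest sgControl library, and the log2 fold change was -0.10 with a 95% interval of -0.20 to 0.00 (edgeR adjusted p = 0.113). Without sgControl replicate 3 Etv6 was called at -0.12 (edgeR adjusted p = 0.0365). Etv6 (ENSMUSG00000030199) spans 134035700 to 134270158 of chromosome 6, plus strand, and shares 135 exon bases with Gm17089, which had at most 4 counts in any library.

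Gabpa, the DNA-binding subunit of GABP, rose slightly while one of its partners fell. Gabpa had 108, 105 and 107 CPM in sgCdk10 and 96.7, 99.9 and 104 CPM in sgControl. The groups did not overlap by a narrow margin, and the log2 fold change was 0.09 (SE 0.04; edgeR adjusted p = 0.0374). The call ended with the replicate number as a block (edgeR adjusted p = 0.051), in DESeq2 (adjusted p = 0.147), without the filter (edgeR adjusted p = 0.0663) and on leaving out any 1 library other than sgControl replicate 3 (edgeR adjusted p from 0.0604 to 0.186). Exons of Gabpa (ENSMUSG00000008976; chromosome 16, 84834925 to 84863779, plus strand) share 397 bases with Atp5j on the opposite strand, whose log2 fold change was -0.09 (edgeR adjusted p = 0.067). The beta subunit gene Gabpb2 fell by 0.29 (SE 0.03; edgeR adjusted p = 1.4e-08), at 172 ± 1.62 CPM in sgCdk10 and 210 ± 2.45 CPM in sgControl (SD, n = 3 each). Its TPM ratio to Gabpa was 0.581, 0.596 and 0.594 in sgCdk10 and 0.807, 0.764 and 0.745 in sgControl, with no overlap (exact permutation p = 0.1). The other beta subunit gene, Gabpb1, stood at 0.06 on the log2 scale and was not called (edgeR adjusted p = 0.367), and its ratio to Gabpa overlapped between the groups (exact permutation p = 0.2).

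**Figure D2:**
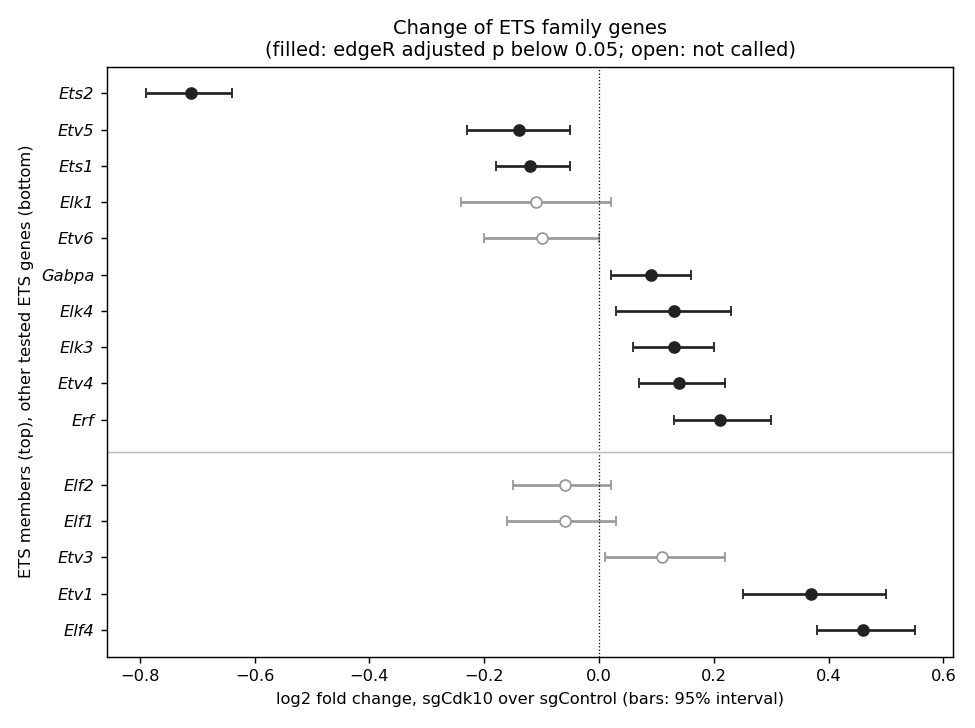
Log2 fold change of sgCdk10 over sgControl with its 95% interval for the 10 members (above the line) and the 5 other ETS genes that passed the filter (below it); filled points were called at an edgeR adjusted p below 0.05. Ets2 at -0.71 stands apart from the other 9 members, which lie between -0.14 and 0.21, and Elf4 at 0.46 and Etv1 at 0.37 are the highest.

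The ratios above were 6 of 8 pairs compared, picked after their values were seen; the remaining pairs were Etv1 to Etv4, which was higher in sgCdk10 without overlap (exact permutation p = 0.1), and Elk1 to Elk4, which overlapped (exact permutation p = 0.2). Adjusted over the 8 pairs the p-values were 0.133 or 0.2, so none can pass a threshold of 0.05 at this sample size.

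**Figure D3:**
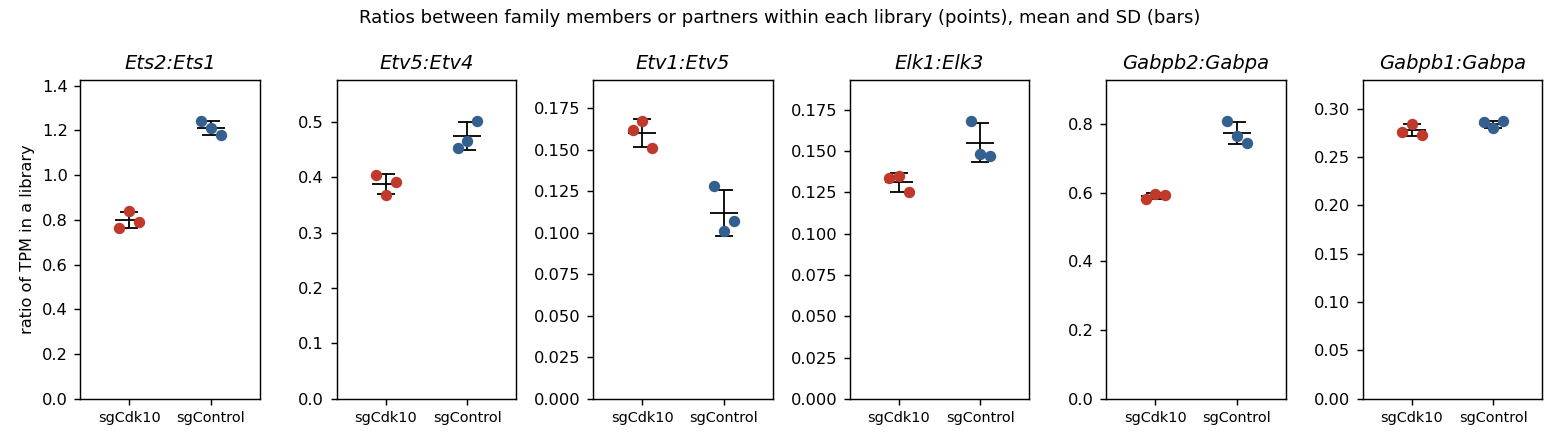
Ratio of TPM values of a pair of genes within each library (points), with mean and SD, for sgCdk10 on the left and sgControl on the right of each panel. The ratio of Ets2 to Ets1 was 0.798 ± 0.0368 in sgCdk10 and 1.21 ± 0.0298 in sgControl, and that of Gabpb1 to Gabpa overlapped between the groups.

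Across the family, levels per length spanned nearly an order of magnitude among the 10 members. In sgCdk10 the order by mean TPM was Etv4 (140 ± 4.39), Elk3 (120 ± 4.01), Erf (69.8 ± 2.12), Gabpa (61.4 ± 0.595), Etv5 (54.4 ± 2.82), Ets1 (45.7 ± 0.376), Ets2 (36.5 ± 1.38), Elk4 (31.4 ± 0.368), Etv6 (22.5 ± 0.761) and Elk1 (15.7 ± 0.182; SD, n = 3 each). No neighbours in that order overlapped in their ranges over the 3 libraries. In sgControl the order was the same at both ends, while Erf (58.6 ± 3.04), Etv5 (58.4 ± 0.851), Ets2 (58.2 ± 1.08) and Gabpa (56.0 ± 1.80) each overlapped with their neighbour in that run, followed by Ets1 at 48.2 ± 0.511 TPM. Ets2 was thus below Ets1 in sgCdk10 and 1 of 4 members with overlapping levels in sgControl. The order rests on the length assigned: with the longest transcript in place of merged exons 3 of the 10 members kept their rank.

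**Figure D4:**
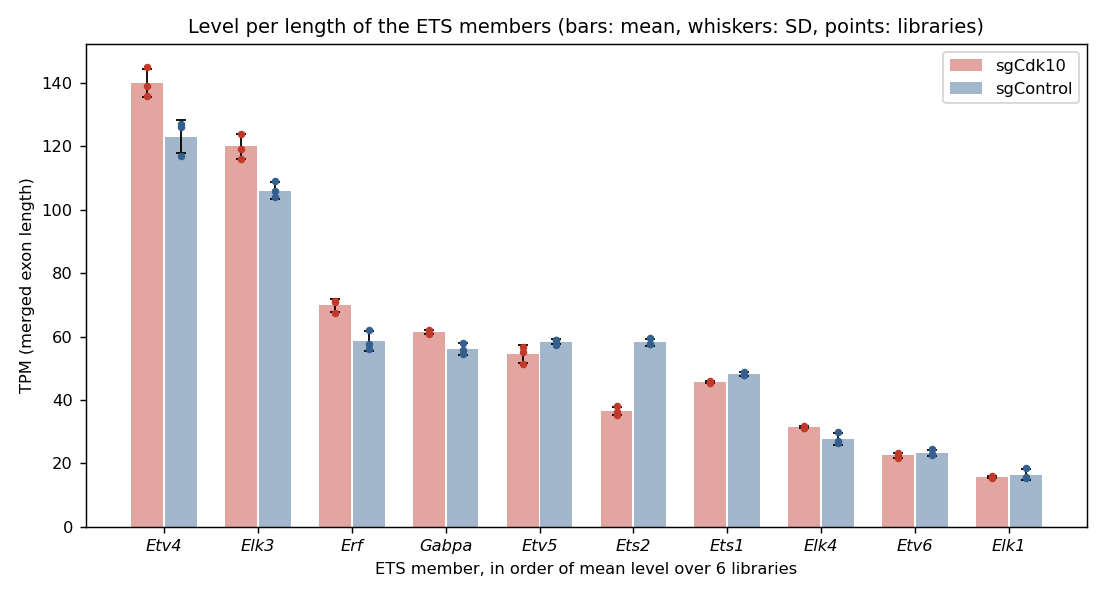
TPM of the 10 members by merged exon length, ordered by the mean over 6 libraries, with sgCdk10 left of sgControl for each gene; bars are means, whiskers SD and points libraries. Etv4 and Elk3 were above 100 TPM in both groups, and Ets2 had 36.5 ± 1.38 TPM in sgCdk10 and 58.2 ± 1.08 TPM in sgControl.

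Ets2 held 5.2 ± 0.253% of the TPM of the 26 ETS genes in the table in sgCdk10 and 8.72 ± 0.0705% in sgControl (SD, n = 3 each). Etv4 held 20.0 ± 0.45% in sgCdk10 and 18.5 ± 0.55% in sgControl, and Erf held 9.94 ± 0.193% in sgCdk10 and 8.78 ± 0.323% in sgControl. Despite the fall of Ets2 the family as a whole was not lower in TPM. The summed level of the 26 genes was 702 ± 11.2 TPM in sgCdk10 and 667 ± 10.5 TPM in sgControl, without overlap. For the 10 members alone it was 597 ± 10.5 TPM in sgCdk10 and 577 ± 8.38 TPM in sgControl, also without overlap. In CPM, the 10 members together had 851 to 880 in sgCdk10 and 875 to 881 in sgControl, ranges that overlapped. TPM does not use the effective library size that CPM uses, and relative to CPM it ran higher in sgCdk10. Atxn1l, for example, had a mean of 110 CPM in both groups, but 47.6 TPM in sgCdk10 and 46.4 TPM in sgControl. The part of this offset in the summed TPM differences was not tested.

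Of the 17 other ETS genes listed, 16 were in the table and 5 passed the filter. Elf4, a factor known from lymphoid cells and from innate immune signalling, rose by 0.46 (SE 0.04; edgeR adjusted p = 1.2e-09), with 76.6 ± 1.29 CPM in sgCdk10 and 55.6 ± 0.967 CPM in sgControl (SD, n = 3 each). With Etv1 it made 2 rises and 0 falls among the 5 by edgeR, and at an unadjusted p below 0.05 the count of falls was still 0, also in DESeq2 by adjusted p. Etv3, a repressor, was at 0.11 and not called (edgeR adjusted p = 0.083). Elf1 and Elf2 were both at -0.06 and not called (edgeR adjusted p = 0.3 and 0.236); with the GC and length correction Elf2 was called lower (edgeR adjusted p = 0.0422). The 11 that did not pass had at most 8 counts in any library. Among them Fli1, Erg and Spi1, factors of endothelial and blood cells, had at most 1, 0 and 8 counts, which is too few for a difference to be detected.

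Among 18 partners and regulators of ETS factors, 9 rose and 4 fell, the targeted gene Cdk10 among the falls, with a median log2 fold change of 0.09. Of all tested genes 22.1% rose and 20.4% fell. In the members' range of levels, where not all of the 18 lie, 28.8% rose and 26.3% fell. With the GC and length correction 6 of the 18 rose and 5 fell. Srf, the partner of the ternary complex factors, rose by 0.55 (SE 0.05; edgeR adjusted p = 1.1e-08), with 83.1 ± 4.31 CPM in sgCdk10 and 56.9 ± 3.95 CPM in sgControl (SD, n = 3 each). Of the other class of SRF partners, Mrtfb fell by 0.19 and Mrtfa, at -0.02, was not called (edgeR adjusted p = 0.00067 and 0.685); with the GC and length correction Mrtfa was at -0.11 and called lower (edgeR adjusted p = 0.0131). Ccnq, which encodes cyclin M, fell by 0.18 (edgeR adjusted p = 0.0439), a call kept in 6 of 14 alternatives. Among kinase genes of the pathway, Map2k1 rose by 0.38 and Mapk3 by 0.17. Map2k2, at -0.04, was not called (edgeR adjusted p = 0.499), but it was called lower with the GC and length correction (-0.14, edgeR adjusted p = 0.000283) and without sgControl replicate 3 (-0.08, edgeR adjusted p = 0.0405). Cop1, part of a ubiquitin ligase known to degrade PEA3 proteins, rose by 0.29 (edgeR adjusted p = 0.0128), and leaving out sgControl replicate 2 gave 0.28 and ended the call (edgeR adjusted p = 0.0682). Cic, a repressor of the PEA3 genes, rose by 0.17 (edgeR adjusted p = 0.00014), but with the GC and length correction it was at 0.01 and not called (edgeR adjusted p = 0.717). The coactivator Ep300 rose by 0.12 and with that correction was at 0.04 (edgeR adjusted p = 0.183). Runx1, which binds DNA together with ETS1, rose by 0.41 (edgeR adjusted p = 7.8e-07).

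Of the listed targets of the ternary complex factors most were higher in sgCdk10, a pattern already known in these data when this list and that of ERK output genes were drawn up, so the counts are no independent support for it. Of 12 genes 11 rose and 0 fell by edgeR, and falls also numbered 0 at an unadjusted p below 0.05 and in DESeq2, with a median log2 fold change of 1.04; the share of all tested genes that rose was 22.1%. Egr1, an immediate early transcription factor, had 86.0 ± 2.27 CPM in sgCdk10 and 18.5 ± 0.881 CPM in sgControl, and Junb 77.7 ± 3.09 CPM in sgCdk10 and 26.6 ± 3.36 CPM in sgControl (SD, n = 3 each). Nr4a1, at 0.08, was the one not called (edgeR adjusted p = 0.272). Of 12 tested ERK output genes, 12 rose, with a median of 0.48; they include the phosphatase genes Dusp6 at 0.71 and Dusp4 at 0.19, the Sprouty gene Spry4 at 0.52 and Ccnd1, the gene of cyclin D1, at 0.34 on the log2 scale. Etv4 and Etv5 belong to the same class of ERK-induced genes and went opposite ways. Etv4 rose by 0.14, as did the third PEA3 gene, Etv1, by 0.37. Etv5 fell by 0.14, a call that was lost without sgCdk10 replicate 2.

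Of 14 genes known as targets of ETS1 or ETS2, 7 passed the filter, and the other 7 had at most 6 counts in any library. Of those that passed, 5 rose and 1 fell, with a median log2 fold change of 0.34, where 22.1% of all tested genes rose and 20.4% fell. This list too was chosen with earlier results of these data known. It shares Junb with the targets of the ternary complex factors and Ccnd1 with the ERK output genes. The count is therefore no independent support for a rise. Junb (1.55), Mmp13 (0.91), a collagenase at 1.55 ± 0.113 CPM in sgCdk10 and 0.822 ± 0.254 CPM in sgControl, Flt1 (0.51), a VEGF receptor, Ccnd1 (0.34) and Bcl2l1 (0.15), the gene of BCL-XL, rose. The call of Mmp13 was lost without sgControl replicate 2 (0.70, edgeR adjusted p = 0.0582) and in DESeq2 (adjusted p = 0.0715). Timp1, an inhibitor of metalloproteinases, fell by 0.15 (edgeR adjusted p = 0.0192), a call lost in 5 of 14 alternatives. It was at -0.09 both without sgControl replicate 3 (edgeR adjusted p = 0.0983) and with the GC and length correction (edgeR adjusted p = 0.0985). Myc was not called. Junb, Ccnd1 and Srf each stand in 2 of these lists. Of 8 genes known as GABP targets 2 fell and 0 rose by edgeR, and rises also numbered 0 at an unadjusted p below 0.05 and in DESeq2, with a median of -0.05. The count of falls is read against 20.4% of all tested genes, and 26.3% of those in the members' range of levels, so that it is near the background. Some of the 8 lie outside that range, such as Atp5b (mean 1760 CPM in sgCdk10) and Tfb1m (mean 10.4 CPM in sgCdk10). Tfam, the mitochondrial transcription factor, fell by 0.19 (edgeR adjusted p = 0.0014) and Skp2, a ubiquitin ligase subunit, by 0.11 (edgeR adjusted p = 0.0259). The call of Skp2 was kept in 10 of 14 alternatives and lost in DESeq2 (adjusted p = 0.109). Without sgControl replicate 3 the number of these targets that fell was 5, and without sgControl replicate 1, sgCdk10 replicate 1 or sgCdk10 replicate 3 it was 1.

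**Figure D5:**
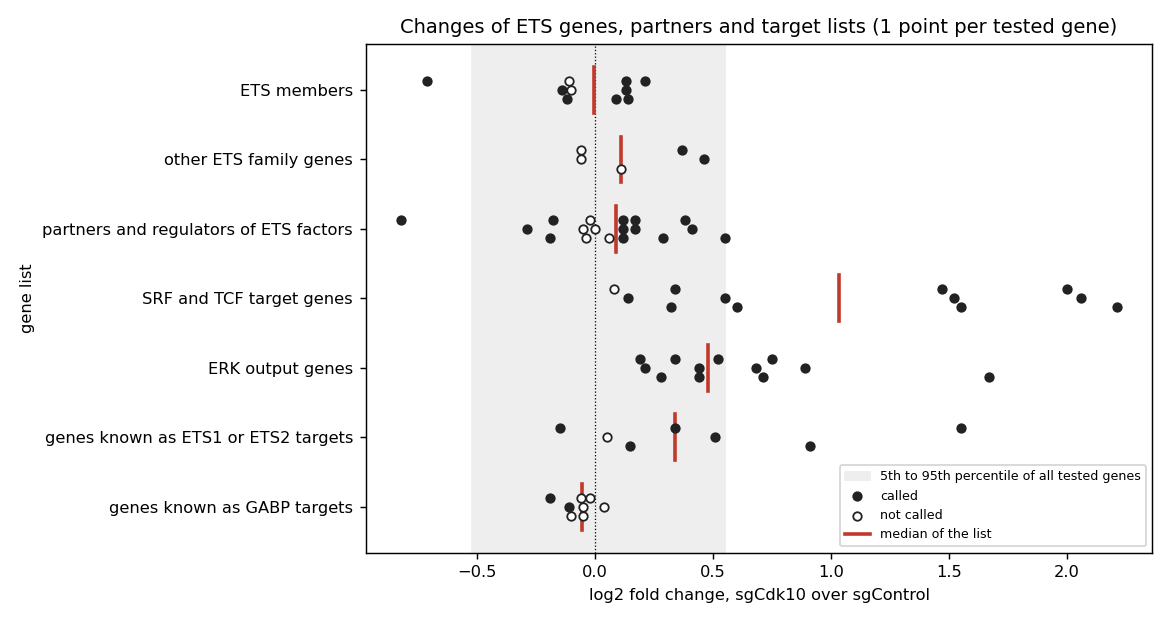
Log2 fold change of sgCdk10 over sgControl for each tested gene of 7 lists; filled points were called, red lines are list medians and the grey band runs from the 5th percentile (-0.52) to the 95th (0.55) of all 13442 genes. The ETS members other than Ets2 lie inside the band, while targets of the ternary complex factors have a median of 1.04.

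The genes whose pattern over the 6 libraries was nearest to that of Ets2 were Rps6ka2, Slc7a5, Gpt2, Cyb5r1 and Nagk, out of 10616 genes compared. Likeness was the root mean square difference between log2 CPM values, each centred on the gene's own mean, and it ran from 0.028 to 0.037. Rps6ka2 encodes a ribosomal S6 kinase that ERK activates and had 49.3 ± 1.34 CPM in sgCdk10 and 78.6 ± 2.05 CPM in sgControl (SD, n = 3 each). Slc7a5, an amino acid transporter gene, had 394 ± 1.62 CPM in sgCdk10 and 651 ± 6.42 CPM in sgControl. Genes that fell by a like amount are near by this measure whatever else they share, since 2 groups set most of the pattern.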

How the data were processed

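The authors deposited 1 table of raw counts per gene for the 6 libraries, with Ensembl identifiers; the submitters' processing notes name the build mm10, featureCounts 2.0.3, HISAT2 2.2.1 and DESeq2 1.40.2, without annotation release, strand setting or parameters. Reads of overlapping, antisense or paralogous genes therefore cannot be assigned with certainty. Symbols, positions and lengths came from GENCODE M21 (GRCm38), which named 52081 of 57010 identifiers; the rest held at most 0.236% of a library's counts.

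From the deposited counts, genes were filtered with filterByExpr (minimum count 10, minimum total 15), scaled by TMM and tested with edgeR 4.0.16 (robust quasi-likelihood, group as the only term, Benjamini-Hochberg over 13442 genes, threshold 0.05). Log2 fold changes are sgCdk10 over sgControl; SE came from the F statistic. TPM used merged exon lengths. Named genes were Cdk10, the 10 members, the listed genes and the 5 genes nearest to Ets2. Members and lists were chosen with earlier results of these data known. Alternatives used DESeq2 1.42.0, limma 3.58.1 (voom), other filters and scaling, GC and length offsets (loess, span 0.5), a replicate block and 1 library left out. The floor of 3 counts covers counting error only, while intervals of fold changes rest on the spread between libraries.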

Additional observations from a re-analysis of the deposited data

How the results depend on the processing

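Over all 14 alternatives each of the 10 members kept its direction, and Ets2 (-0.74 to -0.69), Ets1, Elk3, Etv4, Erf and Cdk10 (-0.90 to -0.75) were called in every one. DESeq2 called 3 members higher, not 5: Elk4 (0.13, adjusted p = 0.105) and Gabpa (0.09, adjusted p = 0.147) were lost. Gabpa was also lost with no filter (0.09) and with the replicate block (0.09, adjusted p = 0.051). With a library left out, 3 to 5 members were called higher and 2 to 5 lower (5 lower without sgControl replicate 3, 2 without sgCdk10 replicate 2), Elk4 lay between 0.09 and 0.19, Gabpa between 0.07 and 0.12, Etv5 between -0.18 and -0.10, Elk1 between -0.16 and -0.03 and Etv6 between -0.12 and -0.06; the cause was not tested. The replicate block moved no other member across the threshold. Deviations from the group mean correlated between libraries of 1 number at 0.03, -0.06 and -0.1, and 1 of 6 libraries correlated best with its own number, so the numbers are not treated as pairs. Among the lists, falls of ETS1 or ETS2 targets numbered 1, and 0 in DESeq2 and with GC and length offsets (0 to 1 with a library left out); falls of other ETS genes numbered 0, and 1 with those offsets; falls of GABP targets numbered 2, and 1 in DESeq2 (1 to 5 with a library left out). Over all genes the count of calls ran from 4179 in DESeq2 to 6056 without sgControl replicate 3, against 5717. With the longest transcript as the length, mean levels over 6 libraries were 60.5 TPM for Ets1, 54.3 for Ets2, 18.8 for Elk1, 94.2 for Elk3, 33.1 for Elk4, 44.9 for Etv5, 18.6 for Etv6, 51.7 for Gabpa and 51.0 for Erf, and 3 of 10 members kept their rank. Every member had at least 453 counts in each library; the 11 other ETS genes with at most 8 counts were not tested.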
